A study of Mus musculus with 18 samples.

Results

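The 37 genes described here are a set of interferon response and antigen presentation genes, taken by gene symbol from a list of names, and all 37 were found among the 22609 gene symbols counted in every library. They fall into 31 genes of the type I interferon response and 6 genes of class I antigen presentation. Their RNA was measured in 3 organs (heart, kidney, liver) of wild-type mice of the strain C57BL/6J, a standard inbred line. Diets began when the animals were 4 weeks old and lasted 21 days, and were either standard chow or a ketogenic diet of 90% fat, 9.7% protein and 0.3% carbohydrate. The groups were thus wild-type mice on the ketogenic diet and wild-type mice on chow, each sampled as heart, kidney or liver, with 3 libraries in each of the 6 groups and 18 in all. The labels call the 3 libraries biological replicates and name no treatment other than diet.

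Type I interferons are secreted proteins that cells release after their sensors meet viral or misplaced nucleic acid. They bind a receptor whose kinases activate a complex of transcription factors that includes STAT2 and IRF9, and this complex switches on genes whose promoters carry an interferon-stimulated response element. The products include further sensors and transcription factors, enzymes and membrane proteins that block viral replication, and GTPases that attack intracellular pathogens. Interferons also raise the machinery that cuts proteins into peptides and shows them on class I molecules to T cells. In the liver these genes are active in hepatocytes as well as in resident macrophages, so that a level in whole tissue sums over several cell types.

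The libraries were compared within their groups before any test. Ketogenic replicates 1 and 2 of heart differed by little more than counting noise, and so did ketogenic replicates 1 and 2 of liver. The chi-square of their counts had a median over genes of 0.665 and 0.698, where counting alone gives 0.455 and the other 16 pairs gave 1.23 to 4.19. Each of these pairs was counted as 1 sample, which leaves n = 2 for the ketogenic diet in heart and liver and n = 3 for every other group. Leaving out ketogenic replicate 3 of heart or liver leaves 1 ketogenic sample, which is then assumed to vary like the chow group. Total counts ran from 16135276 to 23835383 per library. Marker genes matched the labelled organs, but chow heart replicate 3 also held 12100 CPM (counts scaled to a common library size) of 4 atrial markers, where the other heart libraries held 40.8 to 132 CPM, and 162 CPM of 6 adipocyte markers, where the others held 0.655 to 2.67 CPM. Adipocyte markers were also uneven in kidney, where the 6 genes summed to 269, 18.3 and 245 CPM in ketogenic replicates 1, 2 and 3. In chow kidney replicates 1, 2 and 3 they summed to 5.14, 83.5 and 64.1 CPM. The part of adipocyte RNA in the kidney calls was not tested. In RNA from whole tissue, fewer cells of a type and less RNA per cell cannot be told apart.

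Promoter sequence was available from RefSeq for 29 of the 37 genes, as windows of 250 bases before to 50 bases after the start of transcription on the mouse build GRCm38.p6. The 8 genes without a window were Dhx58, Usp18, Oas2, Mx1, Mx2, Parp9, Parp14 and Tap2. The core of the interferon-stimulated response element, GAAANNGAAA on either strand, where N is any base, was found in 15 of the 29 genes, in 14 of 24 type I genes and in 1 of 5 antigen presentation genes. In all RefSeq promoters, 3.99% of 27025 genes and 3.44% of 32851 windows held it. The gamma-activated site TTCNNNGAA, searched on both strands in the same windows, was found in 7 of the 29 genes, all of them type I genes, against 9.55% of all genes. The stretches below are shown because these genes passed in an organ, or, for Ifit1 and B2m, because they did not pass but hold the core, with B2m the antigen presentation gene that does. Each is read 5′ to 3′ on the strand of its gene and lies wholly before the start site. Capitals mark every match to the core on either strand, and overlapping matches run together.
Isg15, chr4:156200856-156200915, minus strand: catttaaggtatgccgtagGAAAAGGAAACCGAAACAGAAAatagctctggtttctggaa
Ifit3, chr19:34583365-34583424, plus strand: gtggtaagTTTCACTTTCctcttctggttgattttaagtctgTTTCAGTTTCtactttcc
Oas1a, chr5:120907526-120907567, minus strand: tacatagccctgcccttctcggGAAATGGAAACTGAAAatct
Gbp3, chr3:142559977-142560036, plus strand: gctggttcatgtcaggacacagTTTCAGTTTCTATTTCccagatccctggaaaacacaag
Ifit1, chr19:34640770-34640829, plus strand: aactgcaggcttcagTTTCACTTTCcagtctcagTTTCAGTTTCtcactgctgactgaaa
Bst2, chr8:71537565-71537624, minus strand: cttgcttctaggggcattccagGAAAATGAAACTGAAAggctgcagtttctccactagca
Rsad2, chr12:26456538-26456597, minus strand: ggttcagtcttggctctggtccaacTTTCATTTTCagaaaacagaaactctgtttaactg
B2m, chr2:122147523-122147582, plus strand: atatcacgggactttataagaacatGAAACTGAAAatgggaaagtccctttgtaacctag

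The stretch of Isg15 holds 3 overlapping matches, those of Ifit3, Oas1a, Gbp3, Ifit1 and Bst2 hold 2, and those of Rsad2 and B2m hold 1. A match is a run of letters and was not tested as a binding site. Of the 9 genes that rose in the liver and have a window, 5 held the core, and of the other 20 with a window, 10 did.

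On chow, per kilobase of exon, B2m stood highest of the 37 genes in each organ, at 168 ± 25.1 CPM per kb in heart, 182 ± 13.8 in kidney and 1040 ± 64.4 in liver (SD, n = 3). B2m encodes the light chain that every class I molecule needs. H2-K1 and H2-D1, the class I heavy chains, held the next ranks, with H2-D1 at 93.8 ± 4.41 CPM per kb in heart and H2-K1 at 518 ± 40.1 in liver. Bst2, a membrane protein that tethers budding virus particles, was the highest type I gene in heart at 24.6 ± 3.93 CPM per kb and in liver at 129 ± 15.4, while in kidney Trim25 was highest at 21.9 ± 1.14. Mx1 was lowest in every organ, at 0.187 to 0.591 CPM per kb, and C57BL/6 mice are known to carry defective Mx1 and Mx2 genes. These levels were scaled within each organ, so that their order within an organ can be read but differences between organs were not tested.

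More of the 37 genes passed in the liver (14) than in the kidney (4) or heart (2). In the liver, 11 of the 31 type I genes rose, 2 fell and 18 did not pass, and of the 6 antigen presentation genes 1 fell and 5 did not pass. A gene passed at a Benjamini-Hochberg adjusted p under 0.05 by edgeR's quasi-likelihood test, adjusted over all genes tested in that organ. The 14 genes make 37.8% of the 37, and 36.8% of the 13220 genes tested in the liver passed, so the share that passed stood near the background. By direction, 19.2% of all liver genes rose and 17.6% fell, against 35.5% and 6.45% of the 31 type I genes. The median log2 fold change of the type I genes was 0.37, against 0.01 over all genes tested, and 24 of the 31 had a fold change above 0. The ketogenic and chow libraries did not overlap for 25 of the 37 genes, 18 with the ketogenic libraries above and 7 with them below, and for 56.7% of all genes tested.

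In the heart, H2-K1 rose, Oasl2 fell and 35 of the 37 genes did not pass. The 2 genes make 5.41% of the set, against 12.1% of the 13609 genes tested in the heart, with 6.25% of those genes higher and 5.81% lower. None of the 31 type I genes rose in the heart by edgeR, and none did at an unadjusted p under 0.05 or by DESeq2, while 5 stood lower at an unadjusted p under 0.05. The share of all genes at that unadjusted threshold was not counted in any organ. Counts at an unadjusted p, here and below, thus cannot be set against a background. The median log2 fold change was -0.02 for the type I genes and 0.27 for the antigen presentation genes, all 6 of which had a fold change above 0, against -0.03 over all genes. Libraries did not overlap for 11 of the 37 genes and for 44.4% of all genes tested. Scaling to the total count alone moved the median of all heart genes to -0.17, and the share of all called genes that were higher from 51.8% to 24.4%. Under that scaling Irf9, Rsad2 and Ifi35 passed as lower beside Oasl2, and H2-K1 did not pass (0.34, adjusted p = 0.112).

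The heart counts depended on which libraries entered. Without chow heart replicate 3, the library with atrial and adipocyte RNA, 7 type I genes fell (Irf9, Isg15, Oas1a, Oasl2, Rsad2, Ifi44 and Parp9) and 2 antigen presentation genes rose (H2-K1 and B2m). In that comparison Rsad2 stood at -0.93 (adjusted p = 3.46e-06) and Isg15 at -0.84 (adjusted p = 0.00565). Both heart calls were lost, and no other gene of the set was gained, when chow replicate 1, chow replicate 2 or ketogenic replicate 3 was left out. Without ketogenic replicate 1 H2-K1 was lost and Isg15 passed as lower (-0.99, adjusted p = 0.0479). The share of all heart genes that passed moved as well, to 28.0% without chow replicate 3 and to 0.623%, 4.87% and 3.36% without ketogenic replicate 3, chow replicate 1 and chow replicate 2.

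In the kidney, H2-K1 and H2-D1 rose, Isg15 and Rsad2 fell and 33 of the 37 genes did not pass. The 4 genes make 10.8% of the set, against 9.05% of the 14526 genes tested in the kidney, of which 3.59% were higher and 5.45% lower. No type I gene rose by edgeR or by DESeq2, and 1 stood higher and 4 lower at an unadjusted p under 0.05. The median log2 fold change was -0.13 for the type I genes and 0.19 for the antigen presentation genes, again with all 6 above 0, against 0 over all genes. Libraries did not overlap for 9 of the 37 genes, 4 antigen presentation genes with the ketogenic libraries above and 5 type I genes with them below, and for 31.4% of all genes tested. Scaling to the total count moved the share of all called kidney genes that were higher from 39.7% to 25.3%, and Oasl2 then passed as lower (-0.59, adjusted p = 0.0458). Without ketogenic kidney replicate 1, 5 genes rose (H2-K1, H2-D1, B2m, Trim25 and Parp9) and 3 fell (Isg15, Rsad2 and Ifit2), with 23.1% of all genes past the threshold. Without ketogenic replicate 3 or chow replicate 1 all 4 kidney calls were lost. Without ketogenic replicate 2 or chow replicate 2 the call of Rsad2 was left, and without chow replicate 3 that of Isg15.

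**Figure D1:**
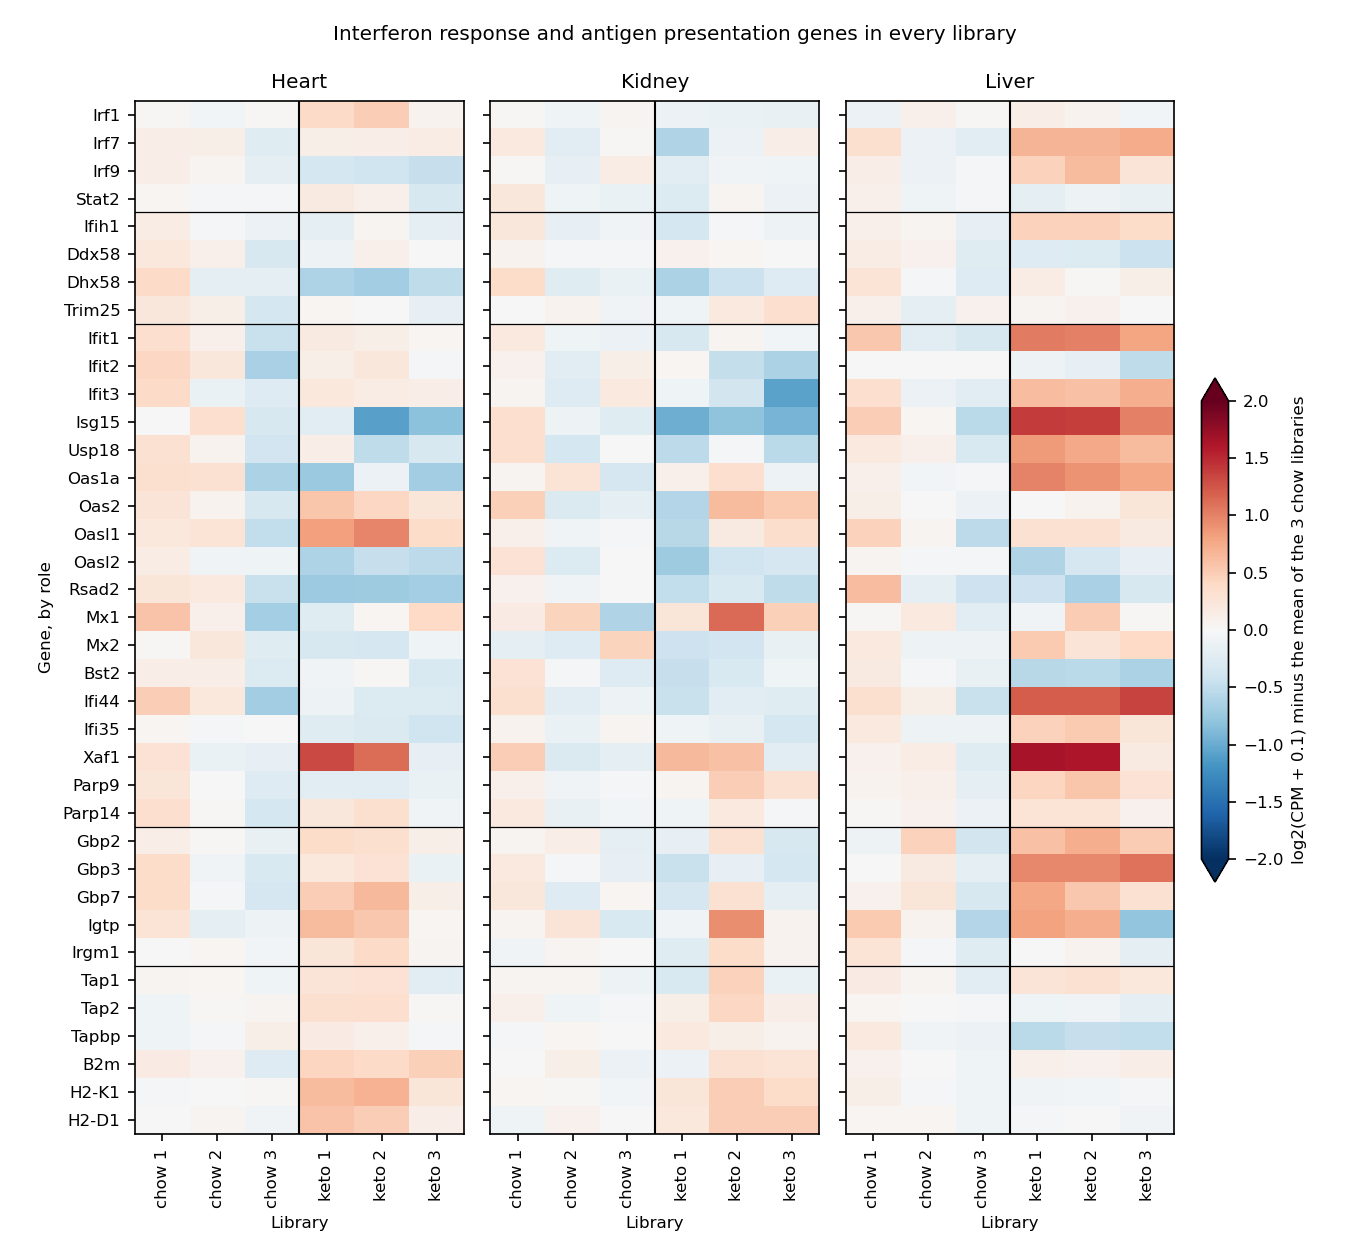
Each cell is log2(CPM + 0.1) of a gene in a library minus the mean of the 3 chow libraries of that organ, with genes in order of role (lines part transcription factors, RNA sensors, antiviral effectors, GTPases and antigen presentation genes) and chow libraries left of the vertical line. The liver panel shows red columns on the ketogenic diet for Isg15, Ifi44, Gbp3 and Oas1a, while the heart and kidney panels show pale or blue cells for Isg15, Rsad2 and Oasl2 and red cells for H2-K1 and H2-D1.

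Among the 4 transcription factors, Irf7 and Irf9 rose in the liver. Irf7 (chromosome 7, 148449088 to 148452300, minus strand, mm9) amplifies interferon production once induced. It was counted at 64.0, 63.7 and 66.5 CPM in ketogenic liver replicates 1, 2 and 3 and at 50, 36.7 and 34.4 CPM on chow. All ketogenic libraries lay above all chow libraries, and the log2 fold change was 0.69 (SE 0.15, adjusted p = 0.00608). Without ketogenic replicate 3 the value was 0.66 and did not pass (adjusted p = 0.0574). Irf7 did not pass in heart (0.13) or kidney (-0.17).

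Irf9 (chromosome 14, 56222822 to 56228867, plus strand, mm9) is the DNA-binding part of the complex that type I interferon activates. In liver it was at 44.7, 50 and 38.6 CPM on the ketogenic diet and at 35.6, 29.9 and 31.7 CPM on chow, with no overlap. Its log2 fold change there was 0.41 (SE 0.12, adjusted p = 0.0182), and 0.36 without chow liver replicate 2 (adjusted p = 0.066). In heart the order was the opposite, with 18.1, 17.5 and 16.8 CPM on the ketogenic diet below 25.5, 24 and 20.4 CPM on chow, at a log2 fold change of -0.42 that did not pass (adjusted p = 0.0696). Irf1, which interferon gamma induces, and Stat2, the partner of Irf9, passed in no organ and ranged from -0.14 to 0.27.

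Of the 4 RNA sensors and their regulators, 1 rose and 1 fell in the liver. Ifih1, also known as MDA5, detects long double-stranded RNA (chromosome 2, 62433850 to 62484312, minus strand, mm9). Its liver levels were 89.7, 89.2 and 84.2 CPM on the ketogenic diet and 69.8, 67.9 and 58.0 CPM on chow, with no overlap and a log2 fold change of 0.41 (SE 0.11, adjusted p = 0.0104). Ddx58, also known as RIG-I, detects short RNA with a triphosphate end (chromosome 4, 40150810 to 40186858, minus strand, mm9), and it moved the other way. It stood at 43.4, 43.0 and 38.7 CPM on the ketogenic diet and at 58.0, 55.5 and 44.0 CPM on chow, a log2 fold change of -0.35 (SE 0.13, adjusted p = 0.0479). Without ketogenic replicate 3 it was -0.28 (adjusted p = 0.225), without chow replicate 1 -0.27 (adjusted p = 0.135) and without chow replicate 2 -0.31 (adjusted p = 0.126), so its call rested on each of these libraries. It was also lost with a stricter filter on low counts (adjusted p = 0.0549). Trim25, a ligase that activates RIG-I, stood at -0.09 in heart, 0.15 in kidney and 0.03 in liver and did not pass. Dhx58, a sensor of the same family, stood at -0.63 in heart, -0.46 in kidney and 0.09 in liver and passed in none.

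The antiviral effectors held the largest changes, and Isg15 showed them in opposite directions. Isg15 encodes a small protein that is attached to other proteins like ubiquitin (chromosome 4, 155573533 to 155574927, minus strand, mm9). In liver it was at 21.8, 21.6 and 16.5 CPM on the ketogenic diet and at 11.6, 8.43 and 5.59 CPM on chow. The groups did not overlap, and Isg15 rose by 1.17 on the log2 scale (SE 0.29, adjusted p = 0.0262). In kidney it was at 3.24, 3.66 and 3.36 CPM on the ketogenic diet and at 8.19, 6.04 and 5.46 CPM on chow, again without overlap, and fell by 0.94 on the log2 scale (SE 0.20, adjusted p = 0.0225). In heart the ketogenic libraries held 5.53, 2.95 and 3.58 CPM and the chow libraries 6.34, 8.07 and 5.10 CPM, which overlapped, and the log2 fold change of -0.71 did not pass (adjusted p = 0.101). The liver call was lost without chow replicate 2 (1.16, adjusted p = 0.0924), and with no filter on low counts (adjusted p = 0.0685). The kidney call was lost without ketogenic replicate 2 (-0.99, adjusted p = 0.0648), ketogenic replicate 3 (-0.92, adjusted p = 0.0717), chow replicate 1 (-0.75, adjusted p = 0.0998) or chow replicate 2 (-1.01, adjusted p = 0.0531).

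Usp18, the protease that removes Isg15 from its targets and damps signalling at the interferon receptor, rose with it in liver (chromosome 6, 121195924 to 121220935, plus strand, mm9). It went from 16.1, 15.1 and 11.3 CPM on chow to 25.3, 23.7 and 21.7 CPM on the ketogenic diet, without overlap, at a log2 fold change of 0.71 (SE 0.15, adjusted p = 0.00383). In heart (-0.25) and kidney (-0.38) Usp18 did not pass.

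Ifi44, an interferon-induced protein of the cytoplasm, had the largest fold change among the genes of the set that passed in liver (chromosome 3, 151393887 to 151412923, minus strand, mm9). It was at 9.72, 9.68 and 10.7 CPM on the ketogenic diet and at 5.17, 4.49 and 3.02 CPM on chow. Every ketogenic library held more than every chow library, and the log2 fold change was 1.27 (SE 0.20, 95% interval 0.82 to 1.71, adjusted p = 0.000775). It stood at -0.30 in heart and -0.31 in kidney without passing.

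The IFIT genes, whose proteins bind viral RNA, were split. Ifit3 (chromosome 19, 34658019 to 34663472, plus strand, mm9) rose in liver, from 16.6, 12.2 and 11.3 CPM on chow to 20.3, 19.9 and 21.8 CPM on the ketogenic diet, a log2 fold change of 0.65 (SE 0.16, adjusted p = 0.00888). That call was lost without ketogenic replicate 3 (0.59, adjusted p = 0.0689). Ifit1 had a larger fold change of 0.88 in liver, with 27.5, 26.9 and 23.1 CPM above 19.3, 11.4 and 10.6 CPM, but its adjusted p was 0.0514 and it did not pass. It passed by DESeq2 (0.87, adjusted p = 0.00266) and without chow liver replicate 1, its highest chow library (1.21, adjusted p = 0.000148). Ifit2 stood at -0.30 in liver, with every ketogenic library below every chow library, and did not pass (adjusted p = 0.143). In kidney Ifit1, Ifit2 and Ifit3 stood at -0.11, -0.34 and -0.47, and in heart at 0.07, 0.02 and 0.13, with none passing.

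The OAS genes encode enzymes that sense double-stranded RNA and, in the active members, switch on RNase L. Oas1a (chromosome 5, 121346266 to 121357534, minus strand, mm9) rose in liver from 2.4, 2.14 and 2.17 CPM on chow to 4.54, 4.26 and 3.88 CPM on the ketogenic diet. Its groups did not overlap, and the log2 fold change was 0.90 (SE 0.21, adjusted p = 0.00592). Oasl2 (chromosome 5, 115346943 to 115362254, plus strand, mm9) fell in heart, with 11.1, 12.4 and 11.8 CPM below 19.0, 16.3 and 16 CPM, by 0.54 on the log2 scale (SE 0.13, adjusted p = 0.0356). Its heart call was lost without ketogenic replicate 3 (-0.54, adjusted p = 0.223), chow replicate 1 (-0.46, adjusted p = 0.101) or chow replicate 2 (-0.57, adjusted p = 0.0897). Oasl2 also stood lower in kidney (-0.50, adjusted p = 0.0937) and liver (-0.32, adjusted p = 0.141), with no overlap of libraries in either, but did not pass. Oas2 and Oasl1 passed in no organ, at 0.05 to 0.67.

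Rsad2, or viperin, makes a chain-terminating nucleotide that stops viral polymerases (chromosome 12, 27127608 to 27141317, minus strand, mm9). In kidney it was at 47.2, 54.2 and 46.7 CPM on the ketogenic diet and at 70.4, 63.4 and 66.3 CPM on chow. The groups did not overlap, and Rsad2 fell by 0.44 on the log2 scale (SE 0.08, adjusted p = 0.0156). The call was lost without ketogenic replicate 3 (-0.39, adjusted p = 0.0559), chow replicate 1 (-0.40, adjusted p = 0.0757) or chow replicate 3 (-0.44, adjusted p = 0.0648). In heart the ketogenic libraries held 24, 24.2 and 24.7 CPM and the chow libraries 47.2, 45.6 and 29.2 CPM. There the lowest chow library was replicate 3, and the log2 fold change of -0.73 did not pass with it by edgeR (adjusted p = 0.089) and passed by DESeq2 (-0.72, adjusted p = 0.0131). In liver it stood at -0.50 with overlapping libraries (adjusted p = 0.361).

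Bst2 fell in liver, against the direction of most effectors (chromosome 8, 74058161 to 74061336, minus strand, mm9). It was at 67.1, 67.6 and 63.7 CPM on the ketogenic diet and at 112, 95.5 and 89.2 CPM on chow, without overlap. The log2 fold change was -0.59 (SE 0.11, 95% interval -0.84 to -0.34, adjusted p = 0.00211), while heart (-0.16) and kidney (-0.29) did not pass.

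Ifi35 and Parp9 rose in liver by smaller amounts. Ifi35, a partner of other interferon-induced proteins (chromosome 11, 101309726 to 101320015, plus strand, mm9), went from 25.9, 21.2 and 21.2 CPM on chow to 31.1, 32.7 and 26.7 CPM, a log2 fold change of 0.37 (SE 0.13, adjusted p = 0.038). Parp9, which forms a complex that ubiquitinates histones and viral proteins (chromosome 16, 35938556 to 35972691, plus strand, mm9), went from 70.2, 71.3 and 59.1 CPM to 89.9, 97.7 and 81.4 CPM, a log2 fold change of 0.39 (SE 0.11, adjusted p = 0.0184). In both genes the libraries did not overlap. The call of Ifi35 was lost by DESeq2 (adjusted p = 0.0613) and without ketogenic replicate 2 (0.35, adjusted p = 0.0504), chow replicate 2 (0.32, adjusted p = 0.114) or chow replicate 3 (0.32, adjusted p = 0.101), and that of Parp9 without chow replicate 3 (0.31, adjusted p = 0.0688). Parp14, a related ADP-ribosyltransferase, stood at 0.18 in liver and passed nowhere. Mx1 and Mx2, GTPases against RNA viruses, passed in no organ, and Mx1 was counted below 3 CPM in every library.

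Xaf1, an antagonist of caspase inhibitors, had no call but a wide spread within the ketogenic groups of heart and liver. In kidney its SD was 3.18 CPM around a mean of 10.5 CPM on the ketogenic diet and 2.61 CPM around 8.29 CPM on chow. In liver its ketogenic libraries held 16.9, 16.6 and 6.09 CPM and its chow libraries 5.67, 5.96 and 4.51 CPM. In heart the ketogenic values were 21.1, 18.4 and 7.48 CPM against 10.3, 7.68 and 7.47 CPM on chow, and in kidney 12.6, 12.1 and 6.87 CPM against 11.3, 6.59 and 6.98 CPM. In each organ ketogenic replicate 3 was thus the lowest of its group, and the log2 fold changes of 0.71, 0.34 and 1.12 in heart, kidney and liver did not pass (adjusted p = 0.322, 0.495 and 0.127). Without ketogenic liver replicate 3 the liver value was 1.64, with the near-identical pair as the only ketogenic sample.

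**Figure D2:**
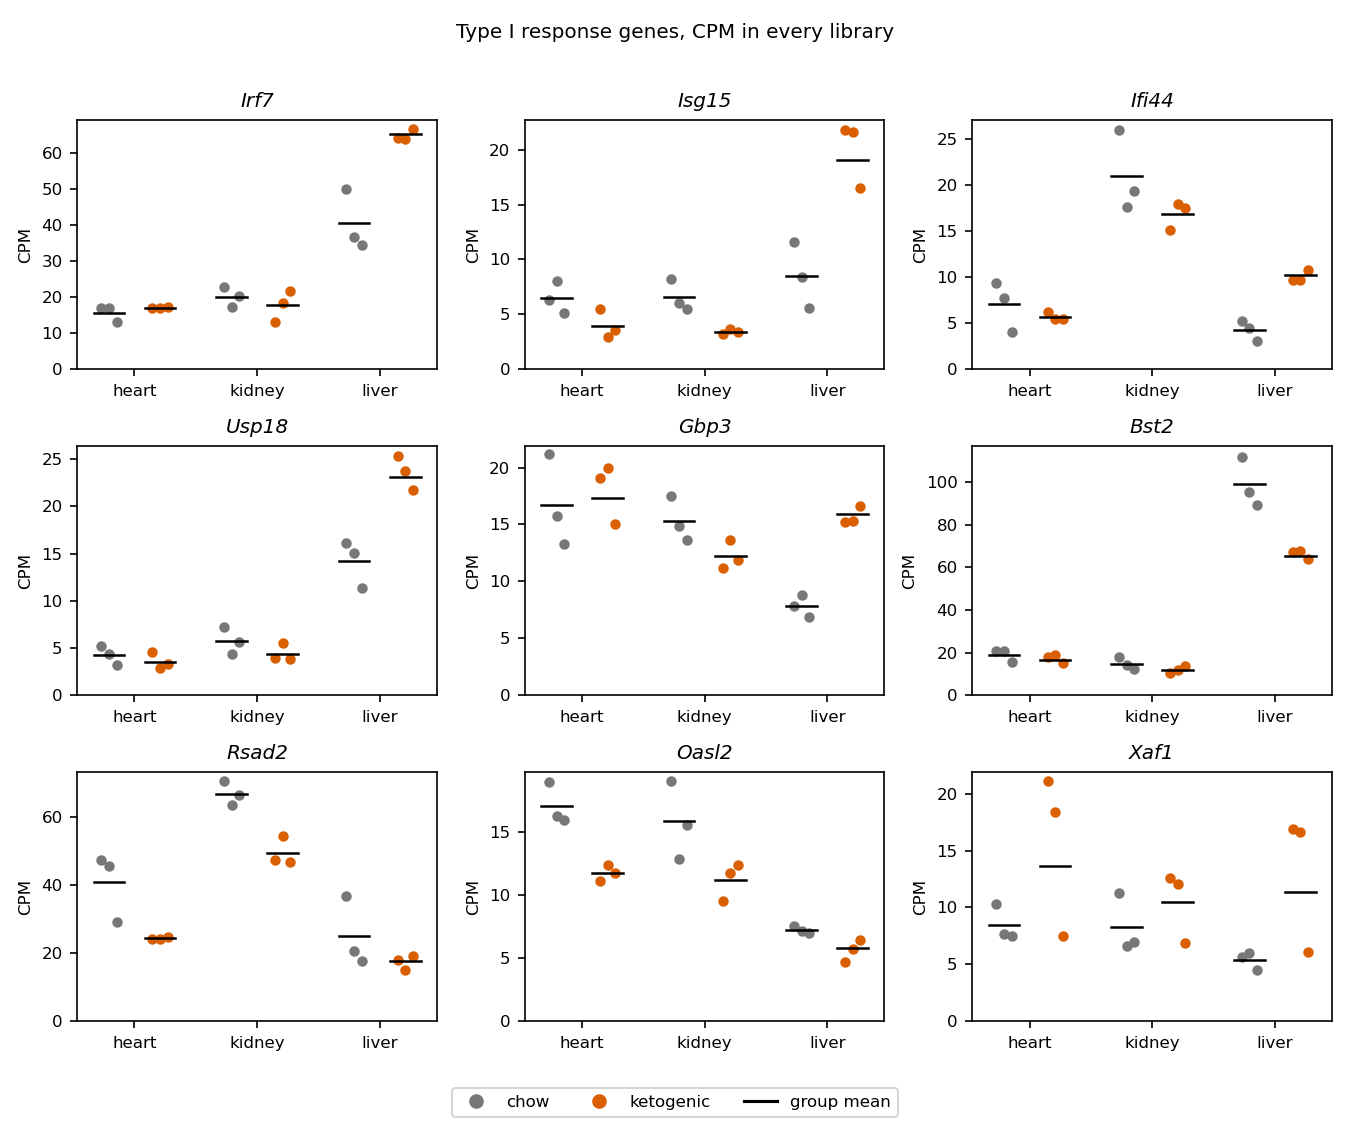
Points are CPM of 9 type I genes in every library of heart, kidney and liver, grey for chow and orange for the ketogenic diet, and the bar is the group mean with each near-identical pair counted as 1 sample. Isg15 is higher on the ketogenic diet in liver and lower in kidney, Ifi44, Usp18 and Gbp3 are higher in liver, Bst2 is lower in liver, and Xaf1 spreads widely within the ketogenic groups of heart and liver.

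The 5 interferon-inducible GTPases act at the vacuoles of intracellular bacteria and parasites, and 1 of them passed. Gbp3 (chromosome 3, 142223016 to 142236176, plus strand, mm9) rose in liver from 7.85, 8.81 and 6.86 CPM on chow to 15.2, 15.3 and 16.6 CPM on the ketogenic diet. The groups did not overlap, and the log2 fold change was 1.02 (SE 0.14, 95% interval 0.71 to 1.32), a 2.02-fold rise with the lowest adjusted p of the 37 genes in any organ (0.000251). Gbp2 and Gbp7 stood at 0.55 and 0.49 in liver, also without overlap, and did not pass (adjusted p = 0.0732 and 0.0562). Both passed without chow liver replicate 2 (0.82 and 0.61, adjusted p = 0.00613 and 0.0228), and Gbp7 passed by DESeq2 (adjusted p = 0.0406). Guanylate-binding protein genes are similar in sequence, and fractional counts were held by Gbp7 in 8 libraries, by Gbp3 in 2 and by Gbp2 in 0 of the 18. Irgm1 stood between -0.08 and 0.20 over the organs. Igtp ranged in ketogenic liver from 87.9 and 84.0 CPM in replicates 1 and 2 to 29.1 CPM in replicate 3, and its interval ran from -1.86 to 2.13. In heart all 5 GTPases had a fold change above 0, from 0.06 to 0.34, and none passed.

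Of the 6 antigen presentation genes, H2-K1 rose in heart, H2-K1 and H2-D1 rose in kidney and Tapbp fell in liver. H2-K1, a class I heavy chain (chromosome 17, 34132957 to 34137278, minus strand, mm9), was in heart at 145, 152 and 111 CPM on the ketogenic diet and at 90.8, 94.0 and 95.3 CPM on chow. It rose there by 0.48 on the log2 scale (SE 0.12, adjusted p = 0.047), without overlap and with ketogenic replicate 3 the lowest of its group. In kidney it was at 161, 190 and 175 CPM on the ketogenic diet and at 139, 138 and 130 CPM on chow, again without overlap, and rose by 0.37 (SE 0.08, adjusted p = 0.027). In liver, at 812, 824 and 841 CPM against 928, 830 and 802 CPM, the log2 fold change was -0.04 with a 95% interval of -0.28 to 0.20.

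The call of H2-K1 in heart was lost without ketogenic replicate 1 (0.50, adjusted p = 0.051), ketogenic replicate 3 (0.67, adjusted p = 0.0719), chow replicate 1 (0.46, adjusted p = 0.123) or chow replicate 2 (0.48, adjusted p = 0.132). In kidney it was lost without any library other than ketogenic replicate 1, at values of 0.31, 0.38, 0.39, 0.38 and 0.35 without ketogenic replicates 2 and 3 and chow replicates 1, 2 and 3 (adjusted p = 0.108, 0.0714, 0.101, 0.0638 and 0.122).

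H2-D1, the other heavy chain (chromosome 17, 35400039 to 35404442, plus strand, mm9), rose in kidney from 164, 184 and 172 CPM on chow to 200, 244 and 243 CPM on the ketogenic diet. The libraries did not overlap, and the log2 fold change was 0.40 (SE 0.10, adjusted p = 0.0395). That call was likewise lost without any library other than ketogenic replicate 1 (0.35, 0.36, 0.36, 0.43 and 0.40, in the order given for H2-K1, with adjusted p = 0.142, 0.123, 0.17, 0.0613 and 0.145). In heart H2-D1 was at 243, 229 and 179 CPM above 164, 170 and 155 CPM, a log2 fold change of 0.35 that did not pass (adjusted p = 0.111). H2-K1 and H2-D1 are close in sequence to each other and to further class I genes, and H2-D1 held fractional counts in 13 of the 18 libraries, so that the share of each is uncertain.

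B2m stood at 0.44 in heart, with 192, 187 and 199 CPM above 160, 152 and 120 CPM, and did not pass by edgeR (adjusted p = 0.0711), while it passed by DESeq2 (0.45, adjusted p = 0.0207). Without chow heart replicate 3, its lowest library, it passed at a smaller fold change of 0.32 (adjusted p = 0.00587). In kidney (0.16) and liver (0.11) it did not pass. Tapbp, or tapasin, which holds empty class I molecules at the peptide transporter (chromosome 17, 34056423 to 34066235, plus strand, mm9), fell in liver from 197, 164 and 159 CPM on chow to 119, 125 and 123 CPM on the ketogenic diet. Its libraries did not overlap, and the log2 fold change was -0.50 (SE 0.11, 95% interval -0.75 to -0.26, adjusted p = 0.00491). Tapbp stood at 0.05 in heart and 0.14 in kidney without passing. Tap1 and Tap2, the subunits of the peptide transporter, passed in no organ and ranged from -0.12 to 0.24.

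**Figure D3:**
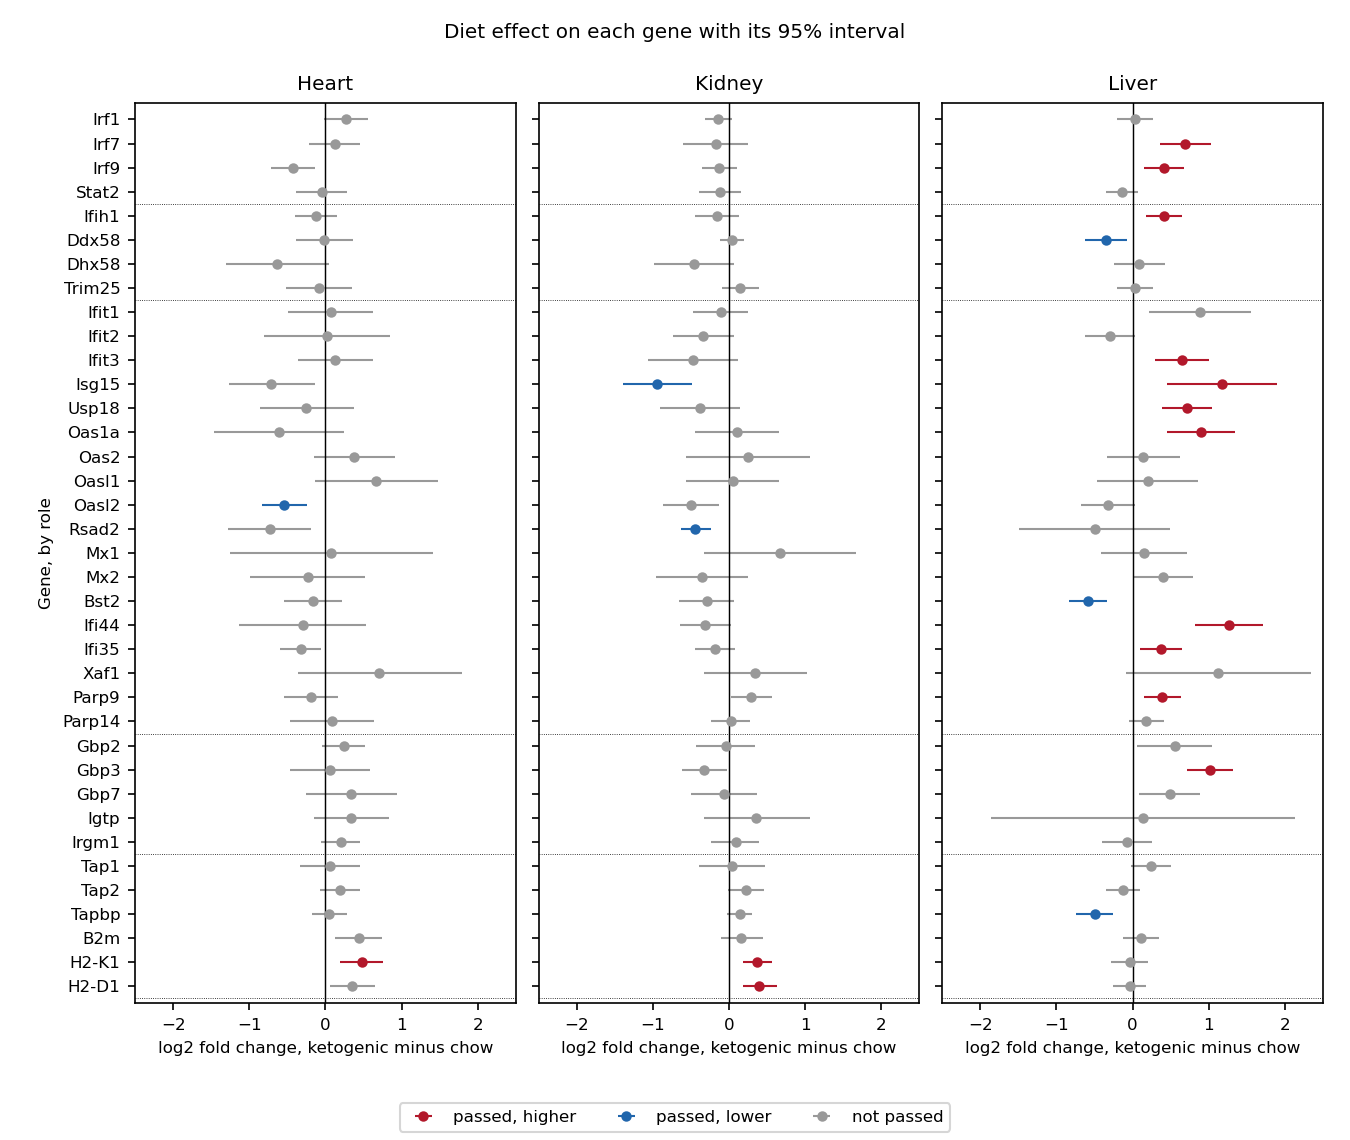
Points are log2 fold changes (ketogenic minus chow) of the 37 genes with their 95% intervals from edgeR, in heart, kidney and liver, red and blue where the gene passed as higher or lower and grey where it did not; dotted lines part the roles. In liver 11 type I genes are red and Ddx58, Bst2 and Tapbp are blue, while red points in heart and kidney are class I heavy chains.

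Over the 3 organs, 16 of the 37 genes passed in 1 organ, 2 passed in 2 organs (H2-K1 higher in heart and kidney, Isg15 lower in kidney and higher in liver), and 19 passed in none. Whether the diet effects themselves differed was tested with 1 edgeR model that held the 6 groups together, as a contrast between the fold changes of a pair of organs. The labels do not say whether the organs came from the same mice. The model took samples of different organs as independent, and its p values rest on that. Between heart and kidney 0 of the 37 genes differed by edgeR and 0 by DESeq2, with 2 at an unadjusted p under 0.05 and 2.5% of all 15695 genes past the threshold. Between heart and liver 8 genes differed (21.6%), against 23.5% of all genes, and between kidney and liver 10 did (27.0%), against 21.8%. In 6 of those 8 and 9 of those 10 a type I gene had the higher effect in liver, and in the others an antigen presentation gene had the lower effect in liver. The effect on Isg15 was lower in kidney than in liver by 2.08 (SE 0.37, adjusted p = 0.0013) and lower in heart than in liver by 1.82 (SE 0.38, adjusted p = 0.00352). For Gbp3 the effect in kidney was lower than in liver by 1.31 (SE 0.25, adjusted p = 0.0021), and for Tapbp it was 0.67 higher (SE 0.14, adjusted p = 0.00323). The full set of 18 differences is given in the closing section.

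The other genes of the pathway were counted from lists. The 10 interferon genes (Ifnb1, 5 alpha genes, Ifne, Ifnk, Ifng and Il28b) were too low to test in any organ. Summed over the 6 libraries of an organ they held 3 counts in heart, 7 in kidney and 5 in liver, and no library held more than 4. A count of 0 allows up to 0.126 to 0.186 CPM per gene at these depths, for counting error only.

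Of 10 genes of receptors and their signalling, 1 fell in heart, none passed in kidney by edgeR (1 at an unadjusted p under 0.05; the smallest p was that of Stat3, at 0.21 with an adjusted p of 0.178) and 1 rose and 2 fell in liver. Stat3, which carries signals of interleukin 6 and of interferon, fell in heart by 0.38 (adjusted p = 0.0372) and in liver by 0.62 (adjusted p = 0.00122). In liver Tyk2, a kinase of the interferon receptor, fell by 0.42 (adjusted p = 0.00901), and Ifngr2, a subunit of the interferon gamma receptor, rose by 0.30 (adjusted p = 0.0318). Of the genes that restrain signalling, Socs3 fell in heart by 1.32 (adjusted p = 0.0143, 10 tested), Ptpn1 rose in kidney by 0.38 (adjusted p = 0.0327, 10 tested) and Nlrc3, at a mean of 0.304 CPM on the ketogenic diet and 0.793 CPM on chow, fell in liver by 1.40 (adjusted p = 0.0384, 9 tested). Of 15 genes that sense nucleic acid upstream of interferon, none passed in heart or kidney by edgeR, with 2 in each at an unadjusted p under 0.05. In liver Zbp1 rose by 0.70 (adjusted p = 0.012), Tbk1 by 0.36 (adjusted p = 0.0195) and Myd88 by 0.35 (adjusted p = 0.0421), while Ikbke, a kinase related to Tbk1, fell by 0.93 (adjusted p = 0.000249). The liver calls were 3 of 10 receptor and signalling genes, 11.1% of the tested restraining genes and 26.7% of the sensing genes. Each is a smaller share than the 36.8% of all liver genes that passed. In heart the share of each list also lay below the 12.1% of all genes. In kidney only the share of the restraining genes lay above the 9.05% of all genes.

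A list of further interferon-induced genes held calls in both directions in liver. There 11 of 34 rose, 3 fell and 20 did not pass, so that 41.2% passed against 36.8% of all liver genes, with a median log2 fold change of 0.21. Herc6, a ligase for ISG15, rose by 1.10 (adjusted p = 5.29e-05) and Ddx60, an RNA helicase, by 1.02 (adjusted p = 0.00166). Ifitm2, a membrane protein against virus entry, fell by 0.85 (adjusted p = 0.000212) and Pml, a nuclear body protein, by 0.87 (adjusted p = 0.000336). In heart 2 of 33 rose, 2 fell and 29 did not pass, and in kidney 1 of 34 fell. The share that passed was 12.1% in heart and 2.94% in kidney, against 12.1% and 9.05% of all genes. Ifi27l2a rose in liver by 1.68 (adjusted p = 0.000574) and fell in heart by 1.29 (adjusted p = 0.00337). Ifitm3 fell in heart by 0.43 (adjusted p = 0.0497), in kidney by 0.58 (adjusted p = 0.00862) and in liver by 0.33 (adjusted p = 0.0241). In heart Tgtp1, an interferon-induced GTPase, rose by 1.31 (adjusted p = 0.0271) and Gbp6 by 0.62 (adjusted p = 0.0492). Without chow heart replicate 3, 11 of this list fell in heart, and both higher calls were lost when chow replicate 1, chow replicate 2 or ketogenic replicate 3 was left out. The heart list held 1 gene higher and 6 lower with total-count scaling, 6 lower with all libraries as separate samples, and 1 lower with edgeR's RLE scaling or without ketogenic replicate 3 or chow replicate 2.

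The immunoproteasome cuts peptides for class I molecules, and 2 of its 3 inducible subunits rose in liver. Psmb9 went there from 9.02, 11.8 and 9.88 CPM on chow to 31.5, 28.5 and 19.2 CPM on the ketogenic diet, without overlap, a log2 fold change of 1.28 (SE 0.20, adjusted p = 0.00149). Psmb8 rose by 0.65 (adjusted p = 0.00702). Of the 11 genes of class I processing and loading outside the set, 4 rose and 1 fell in liver: H2-T23, a non-classical class I gene, rose by 0.34 (adjusted p = 0.0242), Cd1d1, which presents lipids, by 0.39 (adjusted p = 0.0117), and Calr, a chaperone of the loading complex beside tapasin, fell by 0.67 (adjusted p = 0.00627). In heart Nlrc5, the activator of class I transcription, rose from 2.89, 2.24 and 2.82 CPM to 6.32, 7.61 and 4.68 CPM, a log2 fold change of 1.14 (adjusted p = 0.0298), and Pdia3, another loading chaperone, fell by 0.38 (adjusted p = 0.0298). In kidney H2-T23 rose by 0.29 (adjusted p = 0.0317). The share of the 11 that passed was 18.2% in heart, 9.09% in kidney and 45.5% in liver, against 12.1%, 9.05% and 36.8% of all genes. The Nlrc5 and Pdia3 calls were lost when chow replicate 1, chow replicate 2 or ketogenic replicate 3 was left out, and the kidney call of H2-T23 without any library other than ketogenic replicate 1.

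Class II molecules show peptides taken up from outside the cell to helper T cells, and some of their genes rose in each of the 3 organs. In heart 4 of 8 class II genes rose and 1 fell. Cd74, the chaperone of class II chains, was at 162, 166 and 117 CPM on the ketogenic diet and at 56.7, 45.9 and 61.8 CPM on chow, a log2 fold change of 1.36 (SE 0.18, adjusted p = 0.0102). H2-Eb1 rose there by 1.5, H2-Aa by 1.34 and H2-Ab1 by 1.30 (adjusted p = 0.0252, 0.026 and 0.0463), while Ctss, the protease that trims Cd74, fell by 0.76 (adjusted p = 0.0169). In kidney 5 of 8 rose and none fell: H2-Aa by 0.89, H2-Ab1 by 0.78, H2-Eb1 by 0.90, Cd74 by 0.77 and Ciita, the activator of class II transcription, by 1.06 (adjusted p = 0.00475, 0.0114, 0.0124, 0.0243 and 0.0359). In liver 3 of 8 rose, H2-Aa by 1.41, H2-Eb1 by 1.18 and H2-DMb1 by 0.85 (adjusted p = 0.0375, 0.0112 and 0.0489). The share of the 8 that passed in either direction was 62.5% in heart and in kidney, against 12.1% and 9.05% of all genes. In liver it was 37.5% against 36.8%, near the background. The liver values of H2-Aa were 36.4, 35.9 and 16.7 CPM on the ketogenic diet and 9.71, 11.3 and 9.29 CPM on chow, so that replicate 3 lay lowest of its group and still above chow.

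The class II counts moved with single libraries. In heart 2 rose without ketogenic replicate 3, where the call of Ctss was lost too, 1 rose without chow replicate 1 and 2 without chow replicate 2. In kidney 3 rose without ketogenic replicate 3 or chow replicate 1, and 1 without chow replicate 2 or chow replicate 3. In liver 1 rose without chow replicate 1 and none by edgeR without chow replicate 3. With all libraries as separate samples the liver count was larger, at 7. The summed class II level stood at 241 to 341 CPM on the ketogenic diet and 107 to 148 CPM on chow in heart, at 376 to 563 and 249 to 292 CPM in kidney, and at 124 to 220 and 84.7 to 110 CPM in liver.

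**Figure D4:**
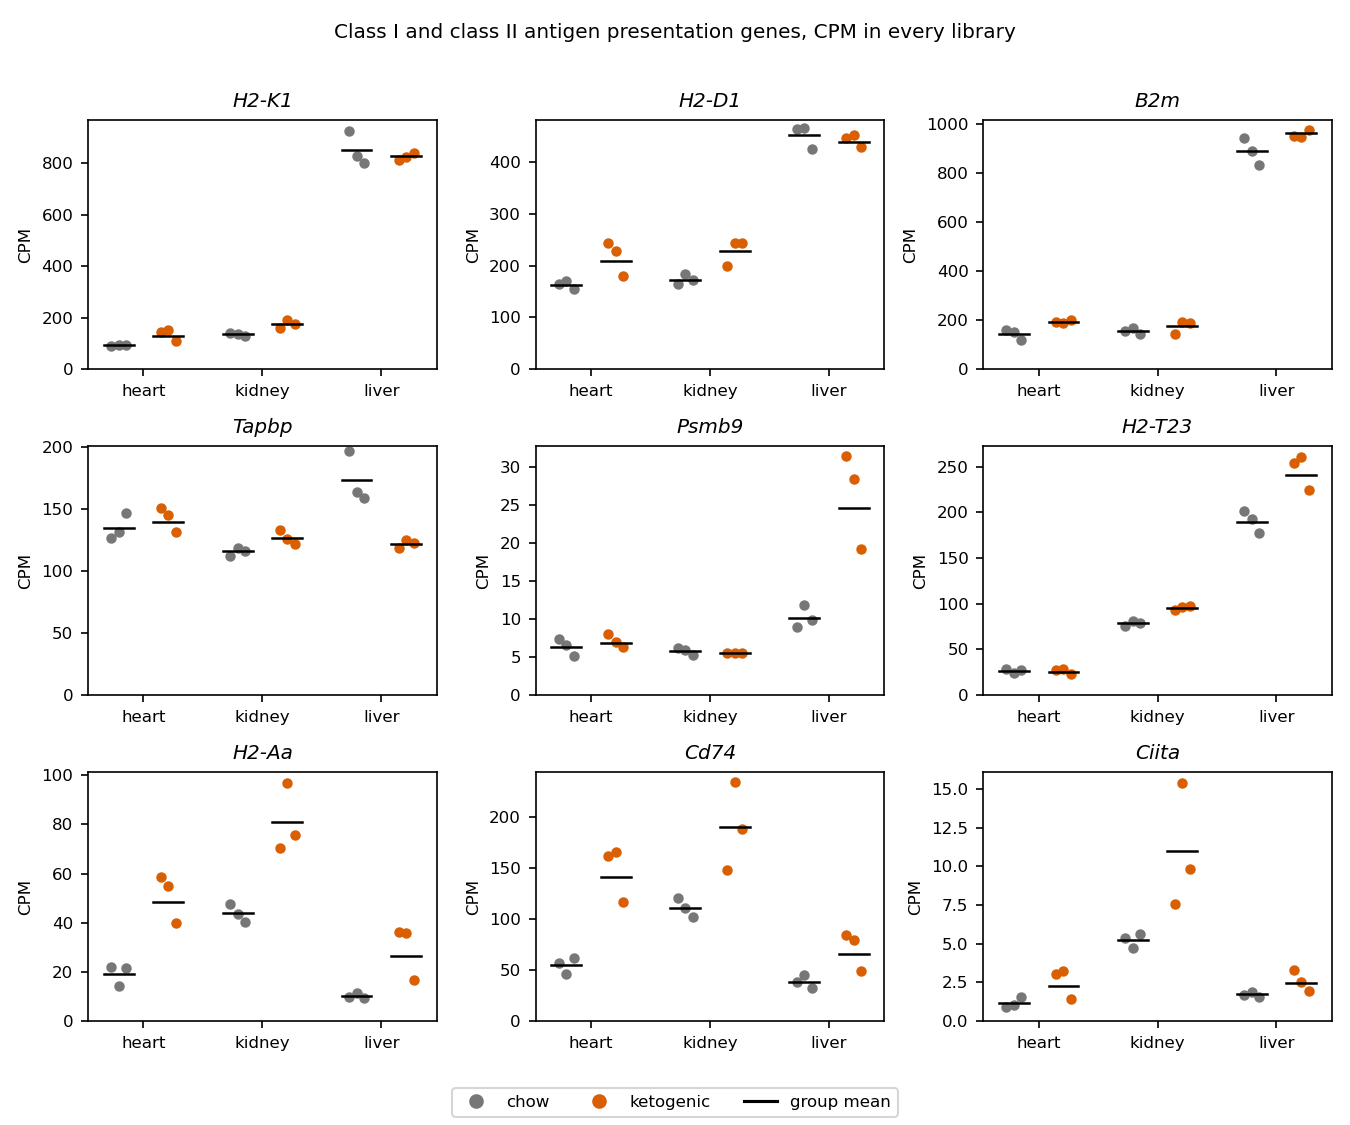
Points are CPM of 4 class I genes of the set (H2-K1, H2-D1, B2m, Tapbp) and of 5 further antigen presentation genes in every library, grey for chow and orange for the ketogenic diet, with bars for group means. The ketogenic points of H2-Aa lie above the chow points in every organ, H2-K1 passed as higher in heart and kidney and H2-D1 in kidney, and in liver Tapbp passed as lower and Psmb9 as higher.

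Markers of immune cells were read beside these results, since macrophages and other presenting cells hold much of the class II RNA. In heart 8 of 11 tested macrophage markers fell and none rose, with a summed level of 365 to 376 CPM on the ketogenic diet and 597 to 670 CPM on chow, and none of the 13 markers in the files was at 0 in all heart libraries. The share of tested macrophage markers that passed was 72.7% in heart and 7.69% in liver, against 12.1% and 36.8% of all genes. Csf1r, the receptor for the macrophage growth factor, fell in heart by 0.65 (adjusted p = 0.00989) and C1qa by 0.78 (adjusted p = 0.00994). Without ketogenic heart replicate 3 none of them fell by edgeR, and without chow replicate 1 or chow replicate 2 5 fell. In kidney 0 of 9 passed by edgeR or DESeq2 (1 at an unadjusted p under 0.05), at 133 to 163 against 153 to 170 CPM. In liver 1 of 13 rose, Mrc1 by 0.39 (adjusted p = 0.0171), with summed levels of 748, 747 and 492 CPM in ketogenic replicates 1, 2 and 3 and 496 to 585 CPM on chow. Without chow liver replicate 3 the call of Mrc1 was lost, and 1 marker fell without ketogenic liver replicate 2. The liver count that rose was 2 by DESeq2 and 3 with all libraries as separate samples. The neutrophil genes S100a8 and S100a9 rose in liver, to 1.08 and 1.28 CPM from 0.10 and 0.104 CPM (adjusted p = 0.00199 and 0.00169). Of the 6 neutrophil markers counted, only these 2 were high enough to test there. Of 4 tested T cell genes Cd3d rose in liver, to 0.741 from 0.176 CPM (adjusted p = 0.00946), with a median log2 fold change of -0.02 over the 4. That is 25.0% of the tested T cell genes, where 36.8% of all liver genes passed. In kidney 1 of 3 tested T cell genes fell (33.3%, where 9.05% of all genes passed), Cd8a by 1.71 (adjusted p = 0.011). The others, Cd4 at 0.35 and Lck at 0.40, stood higher without passing, and the median log2 fold change was 0.35. Summed over their lists, the neutrophil markers stood at 1.73 to 4.32 CPM on the ketogenic diet in liver and 0.0902 to 0.635 CPM on chow, the T cell markers at 3.07 to 5.43 and 3.47 to 3.99 CPM, the B cell markers at 2.91 to 5.28 and 2.08 to 3.77 CPM, and the plasmacytoid dendritic cell markers at 1.73 to 3.95 and 1.35 to 2.1 CPM. Fibroblast markers summed to 1230 to 1330 CPM on the ketogenic diet and 2020 to 3080 CPM on chow in heart, where 4 of 7 fell, and to 404 to 534 and 1040 to 1590 CPM in kidney, where 3 of 7 fell. The share of fibroblast markers that passed was 57.1% in heart and 42.9% in kidney, against 12.1% and 9.05% of all genes. Natural killer cell markers in liver summed to 1.62 to 4.16 CPM on the ketogenic diet and 1.31 to 1.59 CPM on chow, and none of 2 tested passed by edgeR (2 at an unadjusted p under 0.05). The 4 liver markers summed to 65900 to 69700 CPM on the ketogenic diet and 105000 to 113000 CPM on chow, and 3 of them fell, as did 17.6% of all liver genes. Adipocyte markers in liver summed to 85.8 to 148 CPM on the ketogenic diet and 0.545 to 0.726 CPM on chow. Of those 6 markers only 2 were high enough to test in liver, both of which rose, as did 19.2% of all liver genes. Another was at 0 in all liver libraries. The part of these cells in the changes of the 37 genes was not tested.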

How the data were processed

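Messenger RNA libraries from 18 samples in 6 groups were sequenced, 3 per group, with RNA integrity above 4 per the labels' protocols. The authors aligned reads with HISAT2 2.1.0 and counted them with featureCounts 1.5.0, per the submitters' processing notes. Per the file headers, read pairs were counted on exons of the UCSC annotation of mm9, summed per gene, by strand, and multi-mapping or overlapping reads were given fractional weight. What the authors deposited are thus estimated counts without normalization. Of the 37 genes, 29 held a fractional count in some library.

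Estimated counts were rounded to whole numbers, which changed a library total by at most 0.00087%. Libraries of a group whose counts differed by little more than counting noise (median chi-square under 1 over genes with a summed count of at least 20) were summed. Per organ, genes passing edgeR's filterByExpr were scaled by TMM and tested with edgeR 4.0.16 in R 4.3.3 (quasi-likelihood test, robust), at a Benjamini-Hochberg adjusted p under 0.05. Differences between organs were contrasts in 1 model. CPM values are per effective library size, and means and SDs count a summed pair once. The steps were tested on simulated data. DESeq2 1.42.0, RLE and total-count scaling, no filter, a stricter filter (1 CPM in 3 libraries), all libraries as separate samples, a replicate block and leaving out each library were tried. Alternatives for gene lists outside the 37 genes and for single differences between organs were added after seeing the data.

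All 37 genes are named, with values in every library for those that passed in an organ. From each other list of the pathway, up to 4 genes per organ with the smallest adjusted p among those that passed were named, or that with the smallest p. Ddx60, Ifitm3 and H2-T23 in liver, Ciita in kidney, the marker genes of other cells, and the library values of Xaf1, Igtp, Ifit1, Psmb9, Nlrc5, Cd74 and H2-Aa were chosen after their values were seen. Members and lists were chosen with earlier results of these data known. Gene coordinates follow the deposited files (mm9), and promoter sequence is from RefSeq on GRCm38.p6, used by gene symbol only.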

Additional observations from a re-analysis of the deposited data

Results flagged for a closer look

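The diet effect on 18 gene and organ pairs differed between organs by edgeR's quasi-likelihood test of the difference in log2 fold change, adjusted over all genes. Of these, 8 lay between heart and liver and 10 between kidney and liver. Samples of different organs were taken as independent, which the labels do not settle.

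Heart minus liver, the differences below 0, with the higher effect in liver, were -1.82 for Isg15, -1.52 for Ifi44, -1.46 for Oas1a, -0.91 for Gbp3, -0.79 for Irf9 and -0.65 for Ifi35 (adjusted p = 0.00352, 0.0148, 0.0186, 0.02, 0.00579 and 0.0141). The differences above 0 were 0.60 for Tapbp and 0.56 for H2-K1 (adjusted p = 0.00734 and 0.0298). Irf9 and Isg15 passed under all 19 settings tried, and the other 6 missed the threshold under 1 or more of them.

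Kidney minus liver, the differences below 0 were -2.08 for Isg15, -1.55 for Ifi44, -1.31 for Gbp3, -1.09 for Ifit3, -1.06 for Usp18, -0.84 for Irf7, -0.54 for Ifih1, -0.53 for Ifi35 and -0.51 for Irf9 (adjusted p = 0.0013, 0.00889, 0.0021, 0.0327, 0.0229, 0.0336, 0.0337, 0.0329 and 0.0444). Tapbp was the 1 gene with a difference above 0, at 0.67 (adjusted p = 0.00323). Isg15, Ifi44, Gbp3 and Tapbp passed under all 19 settings, and Irf9 passed under 10 of them. The direction held for each of the 18 differences under every setting tried.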

How the results depend on the processing

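No value changed direction across a call under any alternative tried. In the liver, Ifih1, Usp18, Oas1a, Ifi44 and Gbp3 of the 11 genes that rose, and Bst2 and Tapbp of the 3 that fell, passed under all 13 alternatives, while none of the heart or kidney calls passed under every one. In heart the count of genes higher was 0 with total-count scaling, 2 with DESeq2 and 3 with all libraries as separate samples, and the count lower was 4, 2 and 4 under the same settings. With all libraries separate, 13 genes differed between heart and liver. The causes were not tested.

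Leaving out 1 library at a time gave 0 to 2 genes higher and 0 to 7 lower in heart, 0 to 5 higher and 0 to 3 lower in kidney, and 9 to 12 higher and 2 to 3 lower in liver. It gave 0 to 0 differences between heart and kidney, 6 to 12 between heart and liver and 4 to 11 between kidney and liver. Over all genes, those called in heart ranged from 89 without ketogenic replicate 3 to 3742 without chow replicate 3, against 1642, and in kidney from 412 without chow replicate 1 to 3402 without ketogenic replicate 1, against 1314. Where this leaves a group with 1 sample, that sample is assumed to vary like the other group.

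The replicate numbers were checked for pairing. Same-numbered libraries correlated in their deviations from the group means at 0.03 to 0.106 in heart, -0.141 to 0.048 in kidney and 0.03 to 0.093 in liver, and 2, 0 and 6 of 6 libraries correlated best with their own number. The heart and kidney values gave no ground for pairs, and the numbers were not taken as pairs in any organ. For liver, where all 6 matched at low correlations, pairing remains undecided. With the replicate block and all libraries separate, 4 genes were higher and 3 lower in heart, 0 higher and 0 lower in kidney and 18 higher in liver, and 16 differed between heart and liver and 16 between kidney and liver. With the block 2732 heart, 810 kidney and 6174 liver genes of all genes tested were called, and 3317 heart genes with all libraries separate and no block. In liver the share of all genes called was thus 47.7% with the block, against 36.8% in the main comparison. The share of all genes that differed between organs was not counted for any alternative.

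Depth limits the genes near 1 CPM, such as Mx1, whose counts ranged from 6 to 48 per library.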

Other observations

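Xaf1 and Igtp had the largest SD relative to the mean of the 37 genes in the ketogenic liver libraries. The SD over the samples there was 7.53 CPM around a mean of 11.4 CPM for Xaf1 and 40.2 CPM around 57.5 CPM for Igtp (n = 2, with the near-identical pair as 1 sample). In the chow liver libraries it was 0.764 CPM around 5.38 CPM for Xaf1 and 19.5 CPM around 53.0 CPM for Igtp (n = 3).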
